A study of Mus musculus with 6 samples.

Results

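Genes of glycogen metabolism were examined in livers with the LKB1 gene deleted and in control livers. They are Gyg, Ugp2, Gys2 and Gbe1 of glycogen synthesis, Pygl and Phka2 of glycogen breakdown, and Ppp1r3b, Ppp1r3c and Ppp1r3g, which target a phosphatase to glycogen. The 9 members were chosen by symbol for their roles, out of 55450 genes in the count table, and all 9 passed the filter on low counts. The study compared 3 mice labelled LKB1 knockout (KO), which carried LKB1 fl/fl (loxP-flanked) alleles, with 3 wild type (WT) mice. Both groups were given Cre recombinase by AAV8, a viral serotype that reaches hepatocytes well, at 6 weeks of age, so the controls share the virus and the recombinase and differ by the floxed alleles. The left liver lobe was taken 4 weeks later, at 10 weeks of age, from mice of a strain labelled C57BL/J. The promoter driving Cre is not given in the sources used here. RNA with poly(A) tails was sequenced, with 1 library per mouse.

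Glycogen is the branched glucose polymer in which the liver stores sugar after a meal and from which it releases glucose between meals. Glycogenin (Gyg) primes a new particle on itself, UDP-glucose pyrophosphorylase (Ugp2) makes the activated sugar, the liver isoform of glycogen synthase (Gys2) lengthens the chains and the branching enzyme (Gbe1) adds branch points. Liver glycogen phosphorylase (Pygl) removes glucose units once phosphorylase kinase, of which Phka2 encodes the liver alpha subunit, has activated it. The Ppp1r3 proteins hold protein phosphatase 1 on the particle, where it activates the synthase and switches off the phosphorylase. LKB1, encoded by Stk11, is the upstream kinase of AMPK and its relatives, and AMPK can phosphorylate glycogen synthase. Much of the control of this pathway acts on protein phosphorylation and allostery, which RNA counts do not measure.

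Comparing KO with WT livers, 0 of the 9 genes came under the 0.05 limit on Benjamini-Hochberg adjusted p-values from edgeR's quasi-likelihood test. Of all 14539 genes tested, 3.37% did, 2.15% higher and 1.22% lower in KO, so a count of 0 among 9 is near that background. Before adjustment 26.3% of all tested genes had p-values under 0.05, in either direction. Of the 9, 2 did, Ppp1r3b and Pygl, both with lower values in KO. DESeq2 called these same 2 as lower, where it called 15.8% of the 14478 genes it tested, 7.03% as lower, and limma voom called 0. The median log2 fold change over the 9 was -0.24, with 6 negative and 3 positive values, beside a median of 0.01 over all genes tested. In 2 of the 9, again Ppp1r3b and Pygl, the 3 KO libraries all lay below the 3 WT libraries, and in 0 they all lay above. Such separation was seen in 32.4% of all tested genes in either direction and in 15.5% in the lower direction, so the share among the 9 was near that background.

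Total counts ran from 47659122 to 56147667 per library, and levels are given as CPM, counts scaled to the size of each library. Stk11, the deleted gene, was at 11.4 to 22.2 CPM in KO livers and 64.2 to 69.7 CPM in WT (log2 fold change -2.06, edgeR adjusted p = 0.0167), a call that was lost when KO 2, KO 3, WT 2 or WT 3 was left out, with adjusted p-values from 0.0607 to 0.104. One library of each group, KO 1 and WT 1, held 42472 and 29243 counts of Xist and 3 to 6 counts of 4 Y-linked genes. The other 4 held 6146 to 8199 Y-linked counts and at most 16 of Xist, and the labels do not give sex. Results are therefore also given for the 4 libraries that have Y-linked counts, called the Y-linked set (2 against 2), and for KO 1 and WT 1, called the Xist pair, which is 1 library against 1 and has no test. KO 1 stood apart from the other KO libraries. Its log2 CPM across genes correlated at 0.968 with WT 1, 0.943 with KO 2 and 0.959 with KO 3. KO 2 and KO 3 correlated at 0.983 with each other. WT 1 also stood apart in its group, at 0.967 with WT 2 and 0.964 with WT 3, which correlated at 0.992. What sets the Xist pair apart from the Y-linked set therefore cannot be told apart from what sets KO 1 or WT 1 apart. Hepatocyte markers were abundant in every library, with 4 of 6 not overlapping between the groups and in both directions. Alb, Ttr and Apoa1 were lower in all KO libraries, whereas Cps1, of the urea cycle, was at 6042 to 12440 CPM in KO livers and 3361 to 3960 CPM in WT. The summed level of the 6, in which Alb is the largest term, was 22300 to 67540 CPM in KO livers and 78620 to 116600 CPM in WT. Of the total counts, without TMM scaling, Alb took 1.13% to 5.25% in KO and 5.60% to 9.76% in WT. Endothelial markers, of which 4 of 5 did not overlap, summed to 58.5 to 97.6 CPM in KO livers and 120 to 167 CPM in WT. The summed cholangiocyte, Kupffer, stellate and leukocyte markers overlapped between the groups. Of the 5 leukocyte markers, 2 did not overlap, Cd3e and Nkg7, both lower in KO and at most 0.71 CPM in any library. Striated muscle markers summed to at most 0.0986 CPM and adipocyte markers to at most 0.27 CPM. Of the marker genes tested, 0 passed the threshold in edgeR in any list. Over all tested genes, 32.4% did not overlap between the groups. In bulk tissue, fewer cells of a type and less RNA per cell cannot be told apart, and the part of these marker differences in the values below was not tested.

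**Figure D1:**
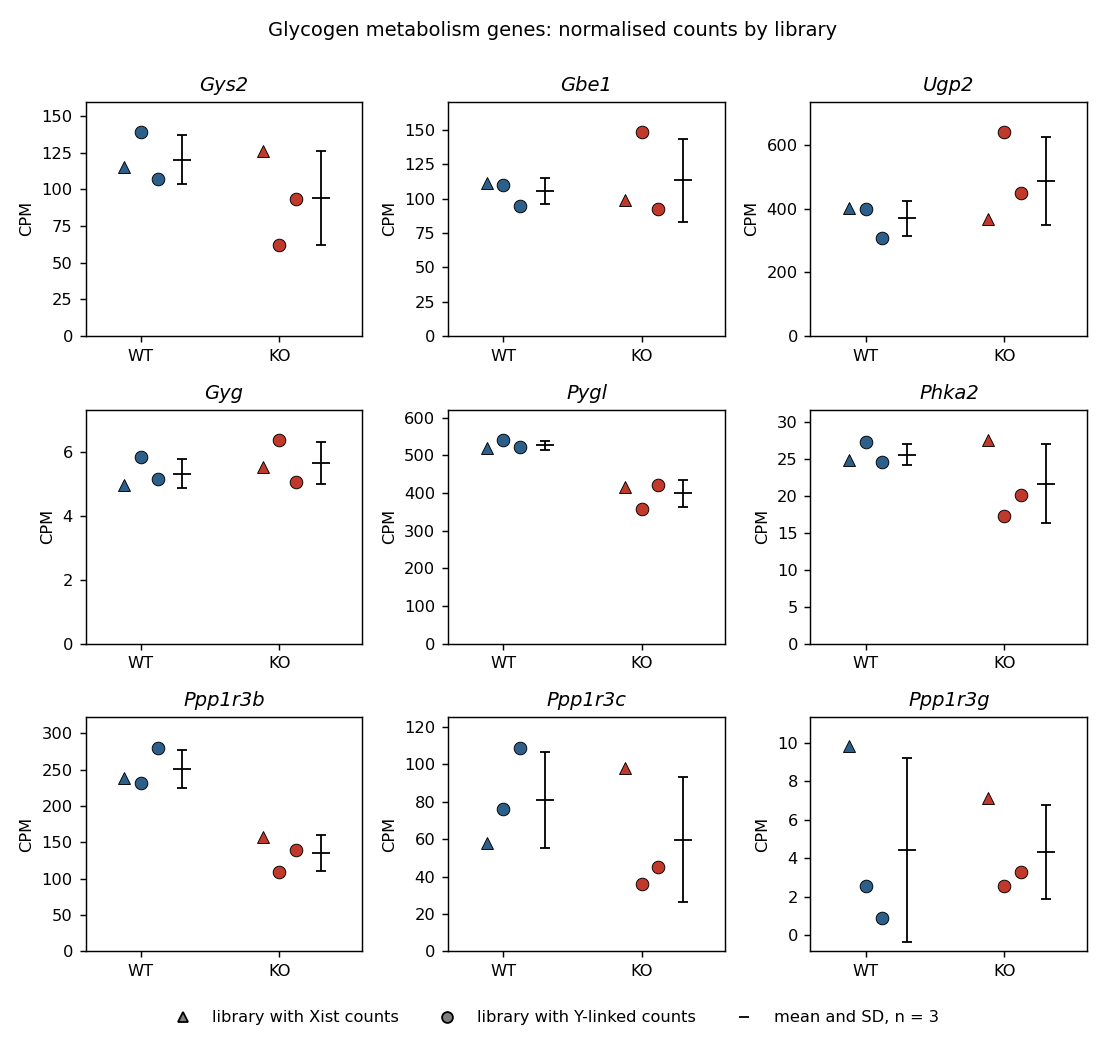
Normalised counts (CPM, vertical axes from 0 or just below) of the 9 genes in each library, with WT in blue and KO in red. Triangles are the libraries with Xist counts, circles those with Y-linked counts, and the black marks give the mean and SD (n = 3). The KO points lie below all WT points for Pygl and Ppp1r3b, while KO 1 lies within or above the WT range for Gys2, Phka2 and Ppp1r3c.

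The 4 genes of synthesis showed no difference past the threshold. All 9 are annotated as protein-coding, and positions are those of the whole gene. Gyg (GRCm38 chromosome 3, 20122084 to 20155317, minus strand), which encodes the primer protein, was at 5.52, 6.37 and 5.07 CPM in KO 1 to 3 and at 4.97, 5.84 and 5.15 CPM in WT 1 to 3. Its groups overlapped. The log2 fold change was 0.09, with a 95% interval from -0.31 to 0.48 (edgeR adjusted p = 0.766), the narrowest interval of the synthesis genes.

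Ugp2 (chromosome 11, 21321138 to 21371201, minus strand) was the most abundant of the 4. It was at 369, 641 and 451 CPM in KO 1 to 3 and at 404, 400 and 308 CPM in WT 1 to 3. KO 2 and KO 3 lay above every WT library, and KO 1 lay between WT 3 and WT 2. The mean was 487 ± 139 CPM in KO livers and 371 ± 54.5 CPM in WT (SD, n = 3). Its log2 fold change was 0.39 ± 0.249 (SE; edgeR adjusted p = 0.352). In the Y-linked set it was 0.62 (edgeR adjusted p = 0.0993), and in the Xist pair the log2 ratio was -0.13. Without KO 2 it was 0.15.

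Gys2 (chromosome 6, 142422613 to 142473109, minus strand), the liver glycogen synthase, was at 126, 61.9 and 93.7 CPM in KO 1 to 3 and at 115, 139 and 107 CPM in WT 1 to 3. KO 2 and KO 3 were below all WT libraries, whereas KO 1 exceeded WT 1 and WT 3. The log2 fold change was -0.36, with a 95% interval from -0.98 to 0.27 (edgeR adjusted p = 0.423). It was -0.67 in the Y-linked set (edgeR adjusted p = 0.0812) and 0.13 in the Xist pair. Leaving out KO 2 brought it to -0.12, and leaving out KO 1 to -0.64.

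Gbe1 (chromosome 16, 70313949 to 70569716, plus strand), the branching enzyme, was at 99.2, 148 and 92.9 CPM in KO 1 to 3 and at 111, 110 and 94.6 CPM in WT 1 to 3. Only KO 2 stood outside the range of WT on the high side, and KO 3 lay just under it. The log2 fold change was 0.11, with a 95% interval from -0.38 to 0.60 (edgeR adjusted p = 0.774), and without KO 2 it was -0.13. KO 2 was thus the library with the highest Ugp2, Gbe1 and Gyg and the lowest Gys2 of the 6.

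Breakdown was represented by the phosphorylase and a subunit of its kinase. Pygl (chromosome 12, 70190811 to 70231488, minus strand) was at 416, 357 and 422 CPM in KO 1 to 3 and at 518, 540 and 521 CPM in WT 1 to 3. All KO libraries were below all WT libraries, and the WT libraries lay close together. The mean was 399 ± 35.8 CPM in KO livers and 527 ± 12.1 CPM in WT (SD, n = 3). The log2 fold change was -0.40 ± 0.157 (SE), with a 95% interval from -0.77 to -0.03 and an edgeR adjusted p-value of 0.165. It was -0.45 in the Y-linked set (edgeR adjusted p = 0.0872) and -0.32 in the Xist pair, so both kinds of library had the same sign. DESeq2 placed it past the threshold, with an adjusted p-value of 0.0275, and was the only one of 14 other fits to do so. Over those fits the adjusted p-value ran up to 0.39.

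Phka2 (chromosome X, 160502166 to 160598878, plus strand) was at 27.6, 17.3 and 20.2 CPM in KO 1 to 3 and at 24.9, 27.2 and 24.6 CPM in WT 1 to 3. KO 2 and KO 3 lay below WT, and KO 1 was the highest of the 6 libraries. Over all 6 the log2 fold change was -0.24 (edgeR adjusted p = 0.441). The estimate was -0.48 ± 0.125 (SE) in the Y-linked set, past the threshold there (edgeR adjusted p = 0.0355) as it was without KO 1 (edgeR adjusted p = 0.0274), and in the Xist pair the log2 ratio was 0.15. Without KO 2 it was -0.09 (edgeR adjusted p = 0.809). Of all genes tested, 33.3% passed in the Y-linked set, and 4473 of 14833 passed without KO 1. The annotation places an antisense gene across its exons, Gm15243, which had 0 counts in all 6 libraries.

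The balance of synthase to phosphorylase transcripts did not separate the groups. The log2 ratio of Gys2 to Pygl CPM was -1.72, -2.53 and -2.17 in KO 1 to 3 and -2.17, -1.96 and -2.28 in WT 1 to 3. The means were -2.14 ± 0.404 and -2.14 ± 0.164 (SD, n = 3; exact two-sided permutation p = 1, where 3 against 3 cannot give a p-value below 0.1). The KO libraries spread more widely around that mean than the WT libraries did, with KO 1 highest and KO 2 lowest.

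**Figure D2:**
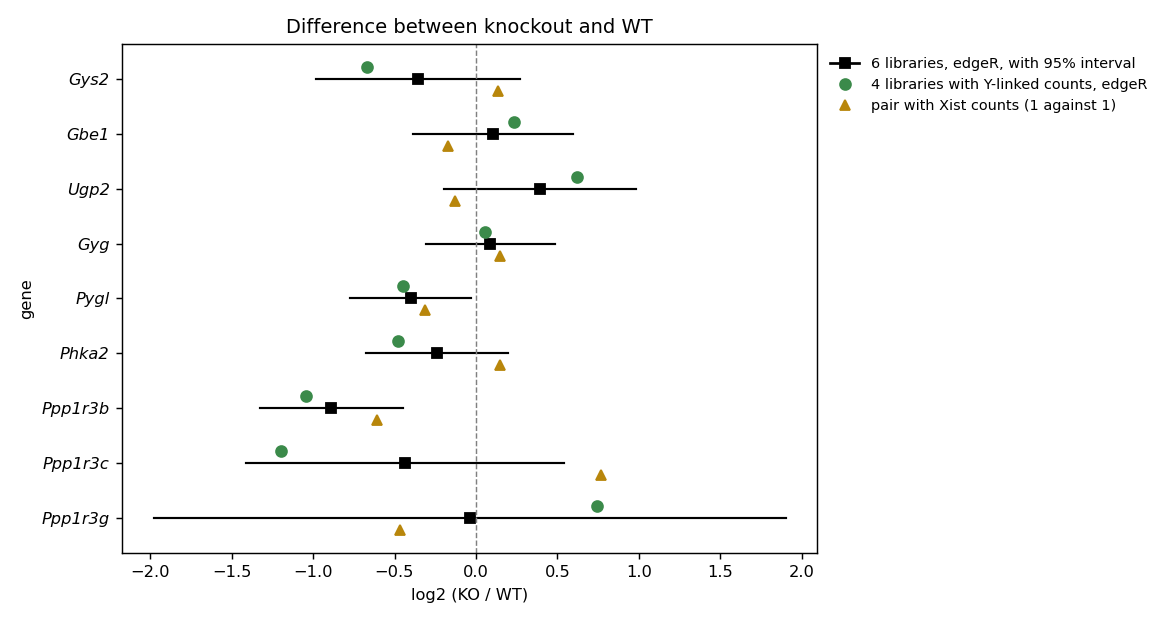
Log2 ratio of KO to WT (horizontal axis) for each of the 9 genes. Black squares and lines are the edgeR estimates from 6 libraries with their 95% intervals, green circles the edgeR estimates from the 4 libraries with Y-linked counts, and yellow triangles the log2 ratio of CPM in the pair with Xist counts. The intervals of Pygl and Ppp1r3b lie below 0, and circle and triangle fall on opposite sides of 0 for Gys2, Gbe1, Ugp2, Phka2, Ppp1r3c and Ppp1r3g.

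The phosphatase-targeting genes held both the largest and the smallest log2 fold change in size of the 9, in Ppp1r3b and Ppp1r3g. Ppp1r3b (chromosome 8, 35375739 to 35388139, plus strand) encodes the subunit known as GL, the main hepatic targeting subunit. It was at 157, 109 and 140 CPM in KO 1 to 3 and at 239, 232 and 280 CPM in WT 1 to 3. Every KO library was below every WT library. The mean was 135 ± 24.3 CPM in KO livers and 250.2 ± 26.1 CPM in WT (SD, n = 3), so that KO was at 54.1% of WT. The log2 fold change of -0.89 ± 0.185 (SE) had a 95% interval from -1.33 to -0.45 and an edgeR adjusted p-value of 0.0536, just above the threshold. It was -1.05 in the Y-linked set, where it passed (edgeR adjusted p = 0.0113), and -0.61 in the Xist pair. Over 14 other fits its sign was always negative and its log2 fold change ran from -1.05 to -0.75. Its adjusted p-value ran from 0.000211 to 0.22 and was under the threshold in 5 of those fits. These were the Y-linked set, DESeq2, no filter, the Xist or Y-linked state as a term, and the fit without KO 1 (0.0087). Of all genes tested, 33.3% passed in the Y-linked set, 15.8% in DESeq2 and 4473 of 14833 without KO 1. With the state term 1504 of 14539 passed, and with no filter 771 of 23717. Leaving out any other library gave Ppp1r3b an edgeR adjusted p-value from 0.103 to 0.22. The difference was the largest in size of the 9 genes.

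Ppp1r3c (chromosome 19, 36731731 to 36736653, minus strand) encodes the subunit PTG, found in many tissues. It was at 98.3, 35.9 and 45.1 CPM in KO 1 to 3 and at 57.8, 76.0 and 108.9 CPM in WT 1 to 3. The groups overlapped because KO 1 was higher than WT 1 and WT 2, whereas KO 2 and KO 3 were below all WT libraries. Over the 6 libraries the log2 fold change was -0.44 ± 0.411 (SE, edgeR adjusted p = 0.531). In the Y-linked set it was -1.20 ± 0.210 (SE) and passed the threshold (edgeR adjusted p = 0.0113), as it did without KO 1 (edgeR adjusted p = 0.0416), and in the Xist pair the log2 ratio was 0.76. Over left-out libraries it ran from -1.0045 without KO 1 to -0.16 without KO 2 or WT 3. The difference between these values, tested as an interaction of the group with the kind of library, was 1.96 on the log2 scale, with an unadjusted p-value of 0.00203 and an edgeR adjusted p-value of 0.0599. That interaction rests on a single pair of libraries, and 2.9% of all tested genes had one past the threshold. Its adjusted p-value ran from 6.58e-06 to 0.168 over 10 other fits and was under the threshold in 6 of them. Those 6 included the fits without KO 2 and without KO 3, where 19.9% and 31.2% of all tested genes passed. The adjusted p-value stayed above the threshold without WT 2 and without WT 3.

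Ppp1r3g (chromosome 13, 35958839 to 35970388, plus strand), a further targeting subunit, was scarce. It was at 7.12, 2.56 and 3.29 CPM in KO 1 to 3 and at 9.86, 2.56 and 0.898 CPM in WT 1 to 3, from 42 to 500 counts per library. The libraries with Xist counts, KO 1 and WT 1, were the highest of their group in each case, and the other 4 lay between 0.898 and 3.29 CPM. The log2 fold change was -0.04, and its 95% interval from -1.98 to 1.90 was the widest of the 9 genes (edgeR adjusted p = 0.981). In the Y-linked set it was 0.74 (edgeR adjusted p = 0.289), and its sign was positive in 7 of 14 other fits, among them those without KO 2, without KO 3 and without WT 1.

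Within the Y-linked set as a whole, 3 of the 9 genes passed the threshold, Phka2, Ppp1r3b and Ppp1r3c, all lower in KO, against 33.3% of the 14546 genes tested in those libraries, or 16.1% in the lower direction. Without KO 1 the same 3 passed, beside 4473 of the 14833 genes tested in that fit, 2101 of them lower in KO. Between the Y-linked set and the Xist pair the sign was opposite for 6 of the 9 genes and for 37.1% of all tested genes. Of the 9 genes 0 had an interaction past the threshold in edgeR, and 2 had one at an unadjusted p-value under 0.05, Ppp1r3c and Phka2, against 20.9% of tested genes. Leaving out KO 2 brought 2 of the 9 past the threshold for the interaction, with 19.9% of all genes tested. Leaving out KO 3 brought 6, all but Gyg, Pygl and Ppp1r3g, with 31.2% of all genes tested.

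Promoter sequence is shown for Pygl and Ppp1r3c. Pygl was lower in all KO libraries, and Ppp1r3c was 1 of 6 members that differed in sign between the kinds of library. Among the members with a start site found, only Pygl and Ppp1r3c held a searched motif in the bases before both the start and any annotated exon. RefSeq start sites on GRCm38.p6 were found for 7 of the 9 genes, all but Gys2 and Ppp1r3b, with 8 windows from 250 bases before to 50 bases after the start. The windows were searched on both strands for the cAMP response element TGACGTCA, its core TGACG and the E-box CACGTG. The core is contained in the full element. For Pygl the stretch is chr12:70227684-70227933 and for Ppp1r3c it is chr19:36736654-36736854, both on the minus strand, and the second stops where the annotated first exon begins. The Pygl stretch lies inside the span that the annotation gives the gene, before the RefSeq start. Capitals mark the core, read here as CGTCA, in the first and an E-box in the second.
Pygl: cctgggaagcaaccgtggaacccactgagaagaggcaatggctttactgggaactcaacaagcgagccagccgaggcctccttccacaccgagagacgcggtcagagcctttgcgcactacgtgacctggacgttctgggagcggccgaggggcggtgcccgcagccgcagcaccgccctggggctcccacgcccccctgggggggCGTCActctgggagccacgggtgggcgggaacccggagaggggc
Ppp1r3c: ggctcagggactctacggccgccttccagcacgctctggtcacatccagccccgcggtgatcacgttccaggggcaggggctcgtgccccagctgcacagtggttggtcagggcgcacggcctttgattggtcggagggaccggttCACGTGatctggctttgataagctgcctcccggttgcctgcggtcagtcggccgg
The Pygl core lies 44 to 40 bases before the start and the Ppp1r3c E-box 104 to 99 bases before it. A core also occurs in the window of Ppp1r3g, 40 to 36 bases before the start, and in that of Gyg, which holds an E-box overlapping it just after the start. The core was in 3 of the 8 windows and in 20.8% of all 32851 promoter windows, the E-box in 2 of the 8 and in 7.15% of all, and the full element in 0 of the 8 and in 1.79% of all. These matches are letters in the windows and were not measured as bound sites.

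Levels between genes were compared as CPM per kilobase of annotated exon. In WT the order was Ugp2 at 120.8 ± 17.8, Pygl at 76.4 ± 1.76, Gys2 at 45.3 ± 6.24, Ppp1r3b at 40.3 ± 4.20, Ppp1r3c at 29.7 ± 9.50, Gbe1 at 19.7 ± 1.76, Phka2 at 4.22 ± 0.238, Gyg at 2.27 ± 0.197 and Ppp1r3g at 1.65 ± 1.77 (SD, n = 3). The WT libraries of Gys2 and Ppp1r3b overlapped, as did those of Ppp1r3b and Ppp1r3c and those of Gyg and Ppp1r3g, so these neighbours in the order were not separated. With the length of the longest transcript in place of all exons, Pygl (167) passed Ugp2 (138) and Ppp1r3b (57.0) passed Gys2 (45.3), so the upper part of the order depends on the length used.

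In every library the liver isoforms made up most of their families. Gys2 gave 98.7% to 99.4% of the summed CPM per kilobase of Gys2 and Gys1, the muscle synthase, in WT and 95.3% to 98.9% in KO. Pygl gave 97.2% to 98.6% of the 3 phosphorylases in WT and 97.0% to 99.0% in KO, the rest coming from the brain and muscle isoforms Pygb and Pygm. Phka2 gave 75.5% to 76.7% of the 2 kinase alpha subunits in WT and 76.1% to 83.5% in KO, beside Phka1. Phka1, named after its values were seen, was at 5.61 to 5.77 CPM in KO livers and 7.95 to 8.54 CPM in WT, with no overlap (log2 fold change -0.54, edgeR adjusted p = 0.0696).

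Ppp1r3b and Ppp1r3c together supplied most of the targeting-subunit transcripts. The share of Ppp1r3b among the 7 Ppp1r3 genes, per kilobase, was 59.7%, 55.6% and 52.1% in WT 1 to 3 and 39.0%, 54.3% and 54.5% in KO 1 to 3. The share of Ppp1r3c was 32.9%, 41.6% and 46.2% in WT 1 to 3 and 55.6%, 40.8% and 40.2% in KO 1 to 3. KO 1 alone had more Ppp1r3c than Ppp1r3b on this scale, but with the longest transcript as the length its shares of Ppp1r3b and Ppp1r3c were nearly equal, at 47.15% and 47.48%. Ppp1r3g made up 0.386% to 5.68%. The groups were not separated by the test for any of the 6 family shares (exact two-sided permutation p from 0.2 to 0.9, and 0.8 to 0.9 after adjustment over the 6), with 0.1 the smallest p-value that 3 against 3 allows.

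**Figure D3:**
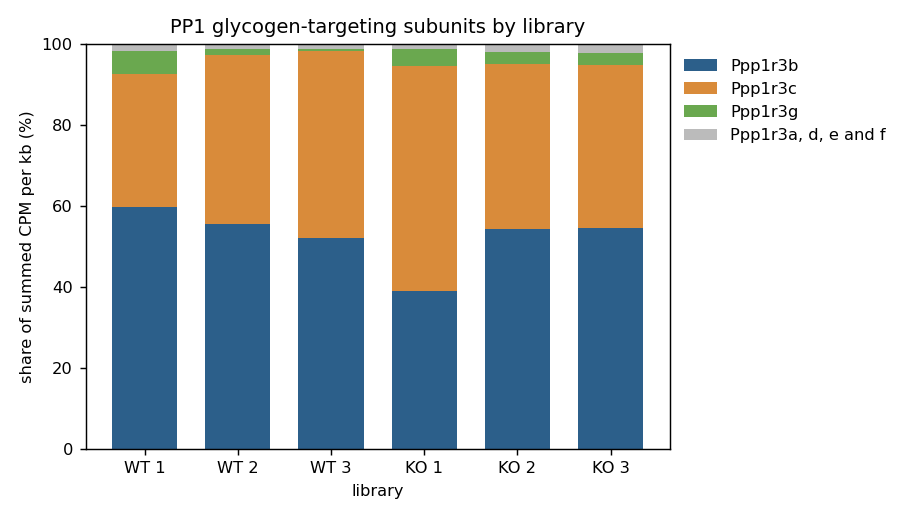
Share of each phosphatase-targeting gene in the summed CPM per kilobase of the 7 Ppp1r3 genes (vertical axis, percent), 1 bar per library. Ppp1r3b and Ppp1r3c fill most of every bar, and KO 1, with 39.0% Ppp1r3b and 55.6% Ppp1r3c, differs from the other 5 libraries in having the larger share from Ppp1r3c.

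A list of 19 other glycogen genes was examined beside the members. Of these 16 were tested and 0 passed the threshold in edgeR, with 5 at an unadjusted p-value under 0.05, 1 call in DESeq2 and 0 in limma voom. Over all tested genes, 26.3% had an unadjusted edgeR p-value under 0.05, and DESeq2 called 15.8%. The median log2 fold change of the list was -0.31, with 12 negative and 4 positive. Phkg1, Ppp1r3a and Ppp1r3f had at most 9 counts in any library and were not tested. Pgm1, a phosphoglucomutase, was the most abundant of the list, at 241 ± 14.3 CPM in KO livers and 203.5 ± 11.3 CPM in WT (SD, n = 3). Next came Gaa, the lysosomal glucosidase, at 111 ± 23.0 and 98.3 ± 8.68 CPM (SD, n = 3). Their edgeR adjusted p-values were 0.308 and 0.569. The KO libraries were all above WT for Pgm1 and Phkg2 and all below for Pgm2l1, Phka1, Epm2a and Stbd1, of which the last was separated by only 0.02 CPM, at 52.34 in KO 1 and 52.36 in WT 1. Such separation, in either direction, was seen in 32.4% of all tested genes. Epm2a, the glycogen phosphatase laforin, was at 3.33 to 5.61 CPM in KO livers and 6.52 to 7.02 CPM in WT (log2 fold change -0.59, edgeR adjusted p = 0.149). In the Y-linked set 5 of the list passed, Gys1 higher and Phka1, Phkb, Epm2a and Stbd1 lower in KO, beside the 33.3% of all genes called there.

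Genes that signal to the glycogen enzymes had log2 fold changes of both signs, 10 positive and 7 negative. Of 18 such genes 17 were tested, 0 passed in edgeR, DESeq2 or limma voom, and the median log2 fold change was 0.02. An unadjusted edgeR p-value under 0.05 was seen in 2 of them, beside 26.3% of all tested genes. Gcgr, the glucagon receptor, was at 203, 92.0 and 117 CPM in KO 1 to 3 and 187 to 212 CPM in WT (log2 fold change -0.56, edgeR adjusted p = 0.273). It was lower past the threshold in the Y-linked set (-1.01, edgeR adjusted p = 0.00811) and without KO 1 (-0.96, 0.00749), and at -0.33 without KO 2. Prkar1a, a regulatory subunit of protein kinase A, had a log2 fold change of 0.29, with an edgeR adjusted p-value of 0.332. Gsk3b, a kinase that inactivates glycogen synthase, and Calm2 were the genes in which all KO libraries lay above WT, with log2 fold changes of 0.57 and 0.40 and edgeR adjusted p-values of 0.119 and 0.162. Separation in that direction was seen in 16.9% of all tested genes. Of this list 5 passed in the Y-linked set, where 33.3% of all tested genes did. Gsk3b, Ppp1cb, Prkar1a and Calm2 were higher there and Gcgr lower in KO. Without KO 1, 6 of the list passed, beside 4473 of all 14833 genes tested.

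Among 7 genes for glucose entry and exit, 0 passed in edgeR or limma voom, and the median log2 fold change was -0.11. An unadjusted edgeR p-value under 0.05 was seen in 4 of them, beside 26.3% of all tested genes. DESeq2 called 4, beside its 15.8% of all genes. Slc2a2, the GLUT2 glucose transporter, was at 203, 109.6 and 146 CPM in KO 1 to 3 and 374, 334 and 278 CPM in WT 1 to 3. All KO libraries were below all WT libraries (log2 fold change -1.10 ± 0.257 (SE), edgeR adjusted p = 0.064). Slc2a2 passed in the Y-linked set (edgeR adjusted p = 0.00784) and without KO 1 (0.00609), and not with another library left out (0.14 to 0.231). Gckr, which encodes a regulatory protein of hepatic glucose phosphorylation, was at 175 to 287 CPM in KO livers and 128 to 169.5 CPM in WT (log2 fold change 0.65, edgeR adjusted p = 0.126). G6pc, the glucose-6-phosphatase that releases free glucose, was at 571 to 1377 CPM in KO livers and 678 to 977 CPM in WT (edgeR adjusted p = 0.889). Of this list 4 passed in the Y-linked set, 1 higher and 3 lower in KO, beside the 33.3% of all genes called there. Without KO 1 also 4 passed, beside 4473 of all 14833 genes tested.

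**Figure D4:**
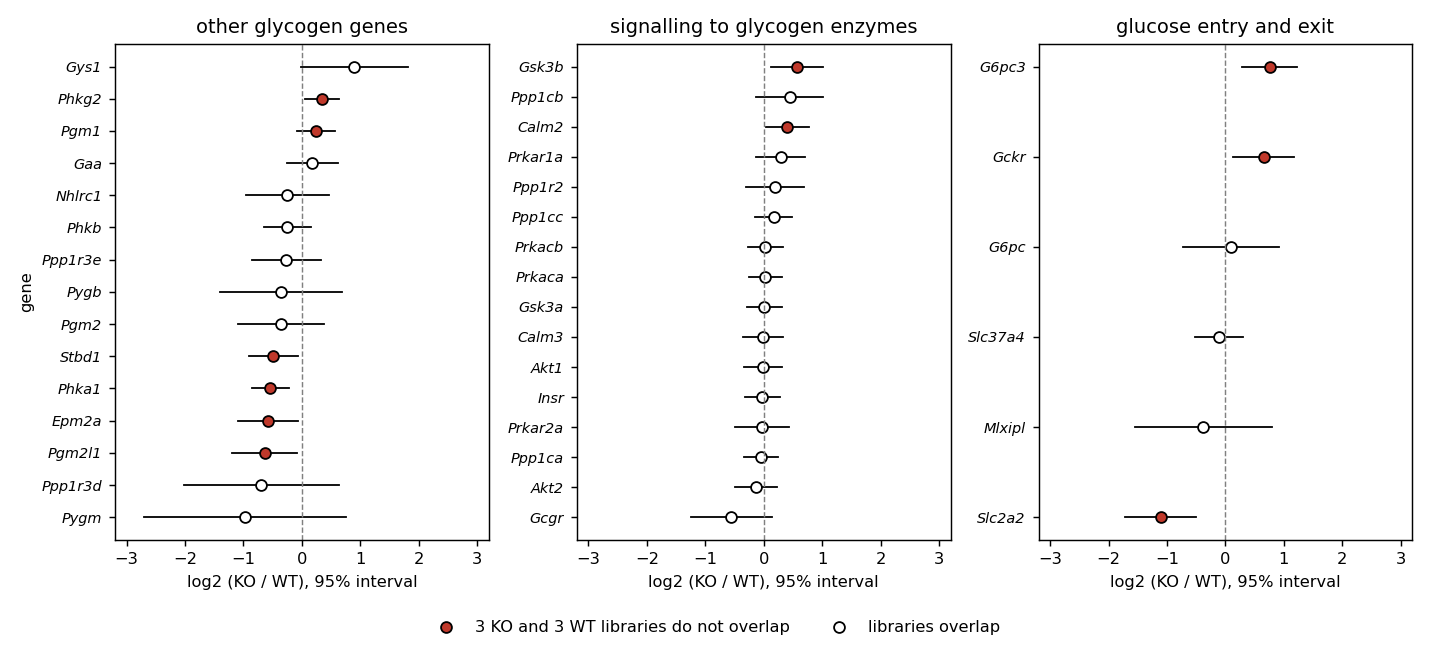
Log2 ratio of KO to WT with its 95% interval from edgeR (horizontal axes) for genes of 3 lists, with 15 other glycogen genes, 16 signalling genes and 6 genes for glucose entry and exit plotted. Red points are genes in which the 3 KO and the 3 WT libraries do not overlap, and white points genes in which they do. Slc2a2 lies lowest and G6pc3 and Gckr highest in the third panel.

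The genes most like 3 of the members across the 6 libraries were found by Pearson's r on log2 CPM. The search covered 11273 other genes with a mean of at least 1 CPM, without symbols starting with Gm and a digit or ending in Rik. These coefficients describe 6 libraries that share 2 groups, and carry no test. For Gys2 they were Hadha, of mitochondrial fat oxidation, with r = 0.998, Amy1 with 0.994 and Perp with 0.985, and 0 of these 3 passed the threshold. For Pygl they were Twsg1 with r = 0.998, Clic5 with 0.992 and Furin with 0.991, again with 0 past the threshold. For Ppp1r3b they were Tacc1 with r = 0.999, Slc30a7, a zinc transporter, with 0.997 and Mlh3, of DNA mismatch repair, with 0.993. Of these Tacc1 passed the threshold (log2 fold change -1.17, edgeR adjusted p = 0.0382), a call lost when KO 2, KO 3, WT 1, WT 2 or WT 3 was left out, with adjusted p-values from 0.0636 to 0.171.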

How the data were processed

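RNA was measured in the liver of 6 mice, 3 per group, as mRNA libraries sequenced in 1 pool with paired reads, per the labels' protocols. Expected counts, which are RSEM's estimated read counts per gene, were deposited by the authors in a single table. Per the submitters' processing notes the tools were bcl2fastq 2.17, cutadapt 1.18, STAR 2.7.0f and RSEM 1.3.1, and the notes name the build mm9. All 55450 gene identifiers with their versions are those of GENCODE M21 on GRCm38, so positions and lengths come from that annotation, and use of strand is not given in the sources used here.

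Columns were matched to samples through the description labels, and groups came from titles. Counts were rounded, filtered with filterByExpr (14539 genes), scaled by TMM and tested with glmQLFit and glmQLFTest of edgeR 4.0.16 in R 4.3.3, with Benjamini-Hochberg adjustment over all genes tested and a threshold of 0.05. A standard error (SE) is the log2 fold change divided by the square root of F, and 95% intervals use it with the test's 6.93 degrees of freedom. These cover the spread between these mice. Ratios in the Xist pair use CPM + 0.1. The fit was tested on simulated data. Alternatives used DESeq2 1.42.0, limma 3.58.1 (voom), other scalings, no filter, other terms and left-out libraries.

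The members and lists were chosen with earlier results of these data known. Named are the 9 members, Stk11, the 3 genes of highest mean CPM per list, any list gene past the threshold, and 3 genes most correlated with Gys2, Pygl and the member of smallest adjusted p. Other genes were named after their values were seen, as isoforms of members, as list genes without overlap between groups, or for their interaction (Mlxipl). Some genes of the lists that this rule names are not reported here, and the counts over the lists include them.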

Additional observations from a re-analysis of the deposited data

Results flagged for a closer look

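Mlxipl, which encodes the glucose-responsive factor ChREBP and belongs to the list for glucose entry and exit, was the 1 gene of the members and lists with an interaction of group and kind of library past the threshold in edgeR over all 6 libraries. The interaction of Ppp1r3c was larger in size, 1.96, with an edgeR adjusted p-value of 0.0599. Mlxipl was at 272 CPM in KO 1 and 183 CPM in WT 1, the libraries with Xist counts, and at 69.9 and 86.9 CPM in KO 2 and 3 against 180.2 and 196 CPM in WT 2 and 3. The interaction was 1.84 on the log2 scale (edgeR adjusted p = 0.034), where 421 of 14539 genes tested, or 2.9%, passed. It rests on 1 library with Xist counts per group. Over 10 other fits it ran from 1.71 to 2.00 and passed in 8, and it was lost without WT 2 (adjusted p = 0.181) and without WT 3 (adjusted p = 0.2155). Over all 6 libraries its log2 fold change was -0.38 (edgeR adjusted p = 0.654).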

How the results depend on the processing

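The count of members past the threshold, 0, became 1 with no filter on low counts, 2 in DESeq2, 1 with the Xist or Y-linked state as a term and 3 in the Y-linked set. The counts for the other glycogen genes became 1 in DESeq2, 1 with the state term and 5 in the Y-linked set, that for signalling genes 5 in the latter, and that for glucose entry and exit 1 with no filter, 4 in DESeq2, 1 with the state term and 4 in the Y-linked set. All genes called numbered 490, and 771 with no filter, 2288 in DESeq2, 1504 with the state term and 4847 in the Y-linked set. Genes with an interaction numbered 421, and 1607 with no filter and 968 in DESeq2. Leaving out 1 library gave 6 (without WT 2) to 4473 (without KO 1) calls, 0 to 3 members, 0 to 2 other glycogen genes, 0 to 6 signalling genes, 0 to 4 entry and exit genes, and 67 (without WT 3) to 4679 (without KO 3) interactions. Every highest count but the last came without KO 1, and all called members, Phka2, Ppp1r3b and Ppp1r3c, were called in that refit. The replicate block gave 105 calls and 0 members, took Tacc1 to an edgeR adjusted p-value of 0.0663, and under it the interaction of Ppp1r3c had an edgeR adjusted p-value of 0.00774. Same-numbered libraries are different mice with no pairing in the labels, and their deviations from the group means correlated at 0.178, 0.044 and 0.068, so the number was not taken as a pairing. Only replicate 1 correlated best with its own number. The sign of Ppp1r3g turned to 0.45 in limma voom, 0.40 with the replicate block, 0.32 with the state term and 0.74 in the Y-linked set, and ranged from -0.61 to 1.31 over left-out libraries. In the Y-linked set G6pc turned to -0.47. Over left-out libraries Gbe1 ran from -0.13 to 0.23 and G6pc from -0.31 to 0.35. The cause of these changes was not tested. The median of the members stayed negative, from -0.46 to -0.12, over all alternatives. Of the calls 313 were higher and 177 lower in KO, and with library size alone 380 higher and 131 lower. Scaling moved the median of all genes by less than 0.1 (log2). With 3 mice per group, intervals as wide as that of Ppp1r3g leave changes of either sign possible.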
